A study of Mus musculus with 4 samples.

Results

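Keratins Krt7, Krt8, Krt18 and Krt19 and the transcription factors Elf3, Elf5, Cdx2, Gata3 and Tfap2c were followed in differentiating female mouse embryonic stem cells (mESCs). They are 9 of the 25965 genes listed in the expression table and were chosen by name, as genes of the trophectoderm and of simple epithelia. The rule uses no measured value, but earlier results of these data were known when it was set. RNA-seq was carried out on 4 libraries, 1 per group, of FVB x CAST F1 mESCs, the daughters of FVB/NJ mothers and CAST/EiJ fathers. The day 0 library came from cells held in 2i medium, and its title names no hairpin. The other 3 libraries were taken on day 6 after weaning into serum-containing medium without LIF. These cells received an shRNA retrovirus on day 2 and puromycin from day 3, carrying the non-silencing hairpin Nons, the hairpin Smarca4.4 or the hairpin Smarca4.6. Smarca4 encodes the ATPase of the BAF chromatin remodelling complex. Sample titles set the groups, since the genotype field reads "Smarcc knockdown" for all 3 day 6 libraries, Nons included.

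All libraries carry replicate number 3, so no value here has a replicate check and no p-value was computed. Depth ranged from 18599402 reads on day 0 to 47143727 reads in the Smarca4.4 library. The level of Smarca4 checked the hairpin labels: it was 7.93 on the log2 scale of CPM (reads of a gene scaled to a fixed total) on day 0, 7.84 with Nons, 7.04 with Smarca4.4 and 7.44 with Smarca4.6. Smarca4 was therefore lower than Nons with both hairpins, the difference being -0.80 (-0.85 to -0.76) with Smarca4.4 and -0.40 (-0.44 to -0.35) with Smarca4.6. Brackets after a difference hold, here and throughout, an exact Clopper-Pearson 95% interval from the recovered read numbers, which covers counting error only. Day 0 and Nons differ in time, medium, virus and drug selection, and these cannot be told apart. In bulk RNA, fewer cells of a type and less RNA per cell cannot be told apart either.

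The trophectoderm is the outer epithelium of the blastocyst and gives rise to the trophoblast of the placenta. It is the first epithelium of the embryo and carries the keratin filaments found in simple, single-layered epithelia. Such filaments are built from obligate pairs of a type II keratin, here Krt8 or Krt7, with a type I keratin, here Krt18 or Krt19. Cdx2, Gata3, Tfap2c and Elf5 are transcription factors of the trophoblast lineage, while Elf3 is an ETS factor of epithelial cells. mESCs derive from the inner cell mass and rarely form trophoblast, whereas simple keratins are also made by many embryonic epithelia.

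Krt8 and Krt18 are neighbours on chromosome 15 of mm10. Krt8 (minus strand, 101996711 to 102004342) and Krt18 (plus strand, 102028216 to 102032026) lie 23873 bases apart, with 0 other listed genes between them, and Krt7 (101411043 to 101430313) is on the same chromosome. Krt19 lies on chromosome 11 (100140810 to 100148665, minus strand), Elf3 on chromosome 1 (135253574 to 135258472, minus strand) and Cdx2 on chromosome 5 (147300805 to 147307270, minus strand). Chromosome 2 holds Gata3 (9857078 to 9890034, minus strand), Elf5 (103411688 to 103450989, plus strand) and Tfap2c (172549593 to 172558622, plus strand). RefSeq promoter windows (GRCm38.p6), from 250 bases before to 50 bases after the annotated start, were found for 7 of the 9 genes, not including Krt19 and Tfap2c. The windows of the 3 chromosome 15 keratins, which rose by day 6, and of Elf3, which fell, are shown 5′ to 3′ on the strand of the gene. The Krt7 window begins at 101412153, inside the Krt7 gene as listed (from 101411043), so it surrounds a start within that gene. Capitals mark matches, on either strand, to 6 motifs. These were TATAA for the TATA box, GGGCGG for the GC box bound by Sp factors, TGANTCA for the factor AP-1, GCCNNNGGC for the AP-2 family of Tfap2c, AGATAA for the family of Gata3, and CAGGAAG for the ETS family of Elf3 and Elf5.
Krt8, chr15:102004293-102004592, minus strand: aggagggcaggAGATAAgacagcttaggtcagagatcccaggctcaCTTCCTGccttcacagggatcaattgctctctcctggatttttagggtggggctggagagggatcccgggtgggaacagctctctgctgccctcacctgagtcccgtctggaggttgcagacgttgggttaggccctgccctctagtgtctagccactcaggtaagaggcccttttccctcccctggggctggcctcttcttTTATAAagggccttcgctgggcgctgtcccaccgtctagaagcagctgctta
Krt18, chr15:102027966-102028265, plus strand: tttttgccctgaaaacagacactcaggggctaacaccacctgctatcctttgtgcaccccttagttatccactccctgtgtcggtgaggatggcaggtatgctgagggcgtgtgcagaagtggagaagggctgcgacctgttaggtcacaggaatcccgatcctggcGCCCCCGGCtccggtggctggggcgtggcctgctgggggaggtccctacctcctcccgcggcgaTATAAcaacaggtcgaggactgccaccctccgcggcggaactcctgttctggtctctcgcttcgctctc
Krt7, chr15:101412153-101412452, plus strand: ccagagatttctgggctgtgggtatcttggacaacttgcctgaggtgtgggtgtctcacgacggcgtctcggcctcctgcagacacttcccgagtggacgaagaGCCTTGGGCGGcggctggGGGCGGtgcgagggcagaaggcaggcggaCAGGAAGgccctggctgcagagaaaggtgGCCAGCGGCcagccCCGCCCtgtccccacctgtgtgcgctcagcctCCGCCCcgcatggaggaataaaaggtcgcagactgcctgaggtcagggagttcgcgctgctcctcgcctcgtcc
Elf3, chr1:135258423-135258722, minus strand: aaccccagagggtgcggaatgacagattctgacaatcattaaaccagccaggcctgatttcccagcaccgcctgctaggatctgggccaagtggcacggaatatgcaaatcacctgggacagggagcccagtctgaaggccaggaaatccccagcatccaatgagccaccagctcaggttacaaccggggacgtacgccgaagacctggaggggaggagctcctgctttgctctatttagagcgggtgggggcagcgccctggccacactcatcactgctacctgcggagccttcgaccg

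The Krt8 window held a TATAA match on each strand, overlapping one another beside the annotated start, together with a GATA match and an ETS match. The Krt18 window held 1 TATAA match, at -19, and 1 AP-2 match. The Krt7 window had no TATAA match but held 4 GC box matches, 2 AP-2 matches, of which that at -146 overlaps the GC box at -141, and 1 ETS match. None of the 6 letter strings was found in the Elf3 window. Of the genes whose windows are not shown, Cdx2, which also fell, had an AP-2 match at -16, and Elf5 had a TATAA match at 6. Gata3, which rose, had GC box matches at -188 and -176 and AP-2 matches at -246, -231 and -221. Among 32851 promoter windows of this length, 24.9% held TATAA, 35.7% GGGCGG, 7.81% TGANTCA, 16.6% GCCNNNGGC, 11.2% AGATAA and 13.3% CAGGAAG. The windows were GC-rich, at 58% for Krt8, 61.3% for Krt18, 66.3% for Krt7 and 59% for Elf3, against a median of 52.7% over all windows. These matches describe letters only and were not tested for binding.

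The keratins rose steeply between day 0 and day 6 with Nons. Krt8, the type II partner of the pair typical of simple epithelia, stood at 0.91 log2 CPM on day 0 (35 reads), 9.91 with Nons (44103 reads), 10.10 with Smarca4.4 and 9.79 with Smarca4.6. All 3 day 6 libraries lay far above day 0, and the rise to Nons was 9.0 (8.52 to 9.52), or 512-fold. Krt18, its type I partner, read 1.21, 9.11, 9.11 and 8.70 log2 CPM in the same order of libraries, from 43 reads on day 0 to 25333 with Nons. Its rise of 7.90 (7.47 to 8.37) was 239.5-fold. Among the 13264 genes that passed a filter on low values (a mean of at least 0 log2 CPM over the 4 libraries), Krt8 had the rise of rank 21 and Krt18 that of rank 50. By level, Krt8 moved from rank 11905 of the 25965 listed genes on day 0 to rank 85 with Nons, and Krt18 from rank 11614 to rank 194.

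Krt19, a type I keratin that lacks most of the tail found in other keratins, was already present on day 0. It measured 4.39 log2 CPM on day 0 (391 reads), 8.22 with Nons, 7.67 with Smarca4.4 and 7.32 with Smarca4.6, a rise of 3.83 (3.69 to 3.98), or 14.2-fold, to Nons. Krt7, a type II keratin of glandular and trophoblast epithelia, measured 1.27, 5.60, 6.10 and 5.80 log2 CPM in the day 0, Nons, Smarca4.4 and Smarca4.6 libraries. Its rise to Nons was 4.33 (3.90 to 4.79), and all day 6 values again lay above day 0. Together the 4 keratins took 0.00276% of the reads on day 0 and 0.187%, 0.192% and 0.151% with Nons, Smarca4.4 and Smarca4.6.

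**Figure D1:**
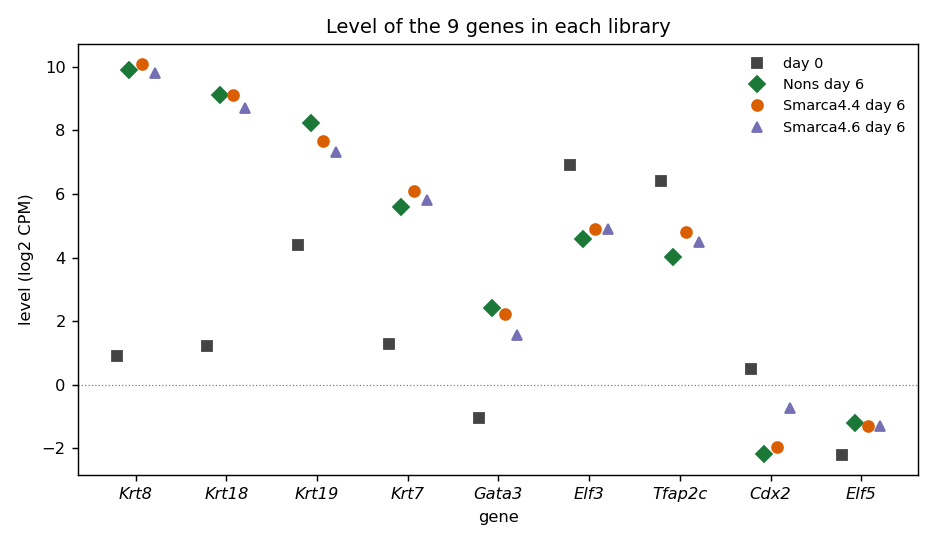
Level of each of the 9 genes (log2 CPM, vertical axis) in each library, 1 point per library, with no replicates. The 4 keratins and Gata3 sit higher in every day 6 library than on day 0, while Elf3 and Tfap2c sit lower in every day 6 library.

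The transcription factors did not move as a block. Gata3, a zinc finger factor of the trophectoderm and of several later tissues, measured -1.05 log2 CPM on day 0 (9 reads), 2.40 with Nons (242 reads), 2.24 with Smarca4.4 and 1.57 with Smarca4.6. It rose by 3.45 (2.50 to 4.6) to Nons, or by 2.08 with a pseudocount of 1 CPM. Its row in the table overlaps those of Gm13256, 4930412O13Rik and 9230102O04Rik, and without a stated strand setting their reads cannot be told apart. Elf3 went the other way, at 6.90, 4.59, 4.89 and 4.89 log2 CPM in the day 0, Nons, Smarca4.4 and Smarca4.6 libraries, a change to Nons of -2.31 (-2.42 to -2.21). Tfap2c, an AP-2 factor shared by trophoblast, germ cell precursors and naive pluripotent cells, measured 6.42, 4.02, 4.80 and 4.49 log2 CPM in that order, a change of -2.40 (-2.53 to -2.27). For both genes every day 6 value lay below day 0.

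Cdx2 and Elf5, which mark trophoblast stem cells, were close to undetected and did not pass the filter. Cdx2, the caudal-type homeobox factor, had 26 reads on day 0, 10 with Nons, 12 with Smarca4.4 and 22 with Smarca4.6, or 0.48, -2.19, -1.97 and -0.73 log2 CPM. The day 0 value was thus the highest, and the change to Nons was -2.68 (-3.89 to -1.58), or -0.98 with a pseudocount of 1 CPM added before the log. Elf5, an ETS factor needed to keep trophoblast stem cells, had 4, 20, 19 and 15 reads in the same order. Its difference of 1.02 (-0.55 to 3.03) between day 0 and Nons was not detectable at this depth.

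Of the 7 genes that passed the filter, 5 rose by at least 2-fold from day 0 to Nons (Krt7, Krt8, Krt18, Krt19 and Gata3) and 2 fell (Elf3 and Tfap2c). Over all genes that passed, 19.6% rose and 12.3% fell by this measure, and 50.8% differed by at least 1.5-fold in either direction. Gata3 (-1.05 log2 CPM on day 0) was below the filter value on day 0 and passed through its day 6 levels. The genes short of the filter are outside these counts: Cdx2 changed by -2.68 (-3.89 to -1.58) and Elf5 by 1.02 (-0.55 to 3.03). The median change of the 7 genes was 3.83 on the log2 scale, beside 0.031 over all genes.

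The make-up of the keratins also changed. To compare genes, CPM was divided by the length in kb of the longest coding transcript (GENCODE M21). On this scale Krt19 supplied 89.2% of the type I pair on day 0, where Krt18 supplied 10.8%. Krt18 then supplied 67% with Nons, 74.8% with Smarca4.4 and 74% with Smarca4.6. Within the type II pair, Krt8 supplied 61.9% on day 0 and 97.6%, 97.1% and 97.1% in the Nons, Smarca4.4 and Smarca4.6 libraries. The ratio of summed type II to summed type I level per kb was 0.104 on day 0, 0.877 with Nons, 1.13 with Smarca4.4 and 1.19 with Smarca4.6, so type I keratins were in excess on day 0 and the sides were close to balance on day 6. With all exons as the length these ratios were 0.101, 0.913, 1.16 and 1.23. On that length Krt7 stood at 0.343 and Krt8 at 0.961 CPM per kb on day 0, so the Krt8 share was above 61.9% there. The day 0 share depends on the length taken for Krt7, whose longest coding transcript was 4.094 kb against 1.958 kb for Krt8. By reads alone Krt7 had 45 and Krt8 had 35 on day 0, so a shorter Krt7 length would lower the Krt8 share.

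**Figure D2:**
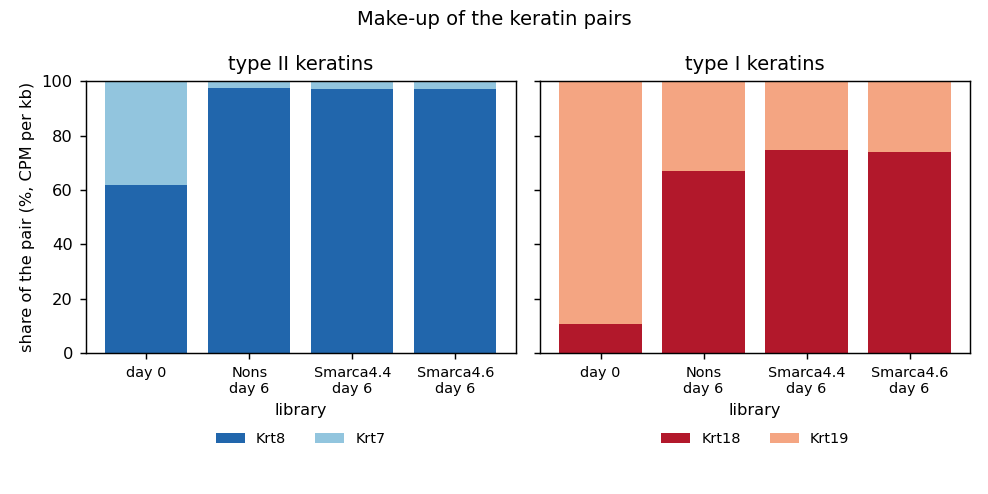
Share of Krt8 and Krt7 in the summed type II level (left) and of Krt18 and Krt19 in the summed type I level (right), in percent of CPM per kb, 1 bar per library. Krt19 makes up 89.2% of the type I bar on day 0 and between 25.2% and 33% in the 3 day 6 libraries.

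The order of the genes by level per kb turned over as well. On day 0 it ran from Elf3 (57.1 CPM per kb) through Tfap2c (28.7) and Krt19 (13.3) to Krt18 (1.61), Krt8 (0.961), Cdx2 (0.618) and Krt7 (0.591), and ended with Gata3 (0.151) and Elf5 (0.0849). Counting intervals overlapped between neighbours from Krt18 to Krt7 and between Gata3 and Elf5. With Nons the order was Krt8 (492 CPM per kb), Krt18 (385), Krt19 (190), Krt7 (11.9), Elf3 (11.5), Tfap2c (5.44), Gata3 (1.64), Elf5 (0.173) and Cdx2 (0.0967). Here the intervals of Krt7 and Elf3 overlapped, as did those of Elf5 and Cdx2, while the keratin order was separated by more than counting error. With all exons as the length, Elf3 (10.9) stood above Krt7 (6.9) with Nons, and Cdx2 (0.0967) above Elf5 (0.0744). A shorter Krt7 length would instead raise the Krt7 level in both orders.

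Each Smarca4 hairpin was next set against Nons at day 6. Both comparisons use the same Nons library, so their values are given side by side and are not independent. None of the 7 genes that passed the filter differed from Nons by 2-fold with either hairpin. Over all genes that passed, 1.19% differed by 2-fold in either direction with Smarca4.4, 1.82% with Smarca4.6 and 0.513% in the same direction with both, and between the hairpins the share was 0.656%. The median difference of the 7 genes was 0.192 with Smarca4.4 and -0.124 with Smarca4.6, beside 0.038 and 0.064 over all genes.

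Krt19 was lower than Nons with both hairpins, at -0.55 (-0.59 to -0.52) with Smarca4.4 and -0.91 (-0.95 to -0.86) with Smarca4.6, which left 53.4% of the Nons level in the second. Krt18 differed from Nons in the Smarca4.4 library by -0.0071 (-0.032 to 0.018), or by -0.0395 after centring on the autosomal median, and was lower in the Smarca4.6 library, at -0.42 (-0.45 to -0.39). Krt8 lay on either side of Nons, at 0.19 (0.17 to 0.21) with Smarca4.4 and -0.12 (-0.14 to -0.10) with Smarca4.6. Krt7 was higher with both, at 0.50 (0.42 to 0.57) and 0.19 (0.10 to 0.28). The type I keratins thus had the lower values against Nons and the type II keratins the higher ones in each hairpin library, as the ratios of type II to type I above also show. For each of the 4 keratins the Smarca4.6 value was below the Smarca4.4 value, by 0.30 to 0.41 on the log2 scale.

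Among the factors, Tfap2c was higher than Nons with Smarca4.4 by 0.78 (0.65 to 0.91), or 1.72-fold, and with Smarca4.6 by 0.47 (0.33 to 0.62). Elf3 was higher by 0.30 with each, with intervals of 0.18 to 0.41 and 0.18 to 0.42. Both genes had fallen from day 0, and in each hairpin library they stood between the day 0 and the Nons levels. Gata3 differed by -0.17 (-0.44 to 0.10) with Smarca4.4, which includes 0, and by -0.84 (-1.18 to -0.50) with Smarca4.6. Cdx2 differed by 0.22 (-1.12 to 1.59) and by 1.46 (0.33 to 2.71), the latter resting on 22 reads against 10 and coming to 0.395 with a pseudocount of 1 CPM. The Elf5 differences, from 15 to 20 reads a library, had intervals that include 0.

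At a threshold of 1.5-fold, Tfap2c was the 1 gene of the 7 past it with Smarca4.4 (higher), where 6.4% of all genes passed. Krt19 and Gata3 were past it with Smarca4.6 (both lower), against 9.51% of all genes. Gata3 was past it between the hairpins, against 4.48%, and 0 of the 7 were past it in the same direction with both hairpins, against 3.54%. Smarca4 itself was lower with Smarca4.4 than with Smarca4.6, while Krt8, Krt18, Krt19 and Gata3 had their lowest day 6 values with Smarca4.6. With 1 library each, the hairpins cannot be told apart from the libraries that carried them.

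**Figure D3:**
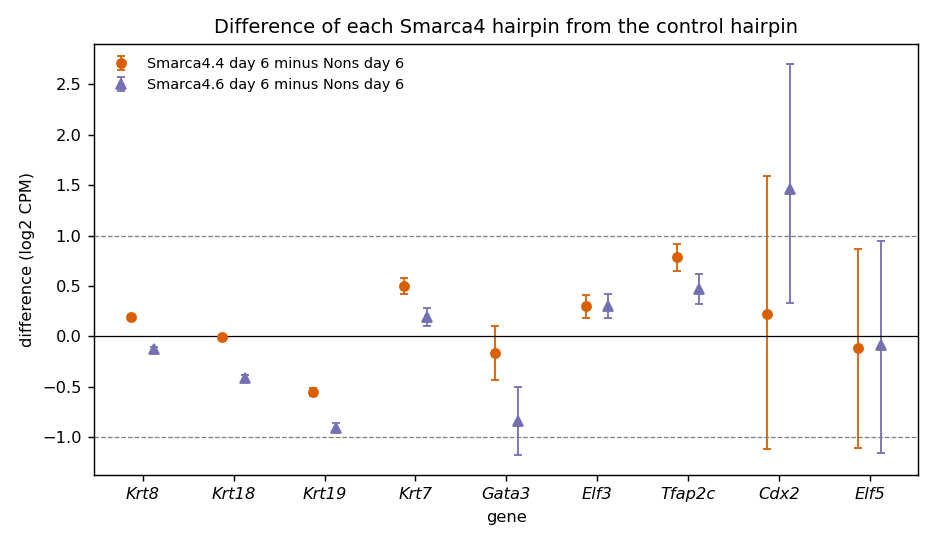
Difference from Nons at day 6 (log2 CPM, vertical axis) for each gene with Smarca4.4 (circles) and Smarca4.6 (triangles), with exact 95% counting intervals as bars and dashed lines at 2-fold. All points except Cdx2 with Smarca4.6 lie within 2-fold, and the wide bars of Cdx2 and Elf5 come from 10 to 22 reads a library.

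Genes of epithelial junctions rose with the keratins. All 24 listed genes for tight junctions, desmosomes and epithelial adhesion or splicing passed the filter. From day 0 to Nons 22 rose by at least 2-fold and 0 fell, against 19.6% and 12.3% of all genes, with a median of 2.06. The largest changes were 7.24 for Esrp1, a regulator of epithelial splicing, 6.99 for Cldn6 and 6.14 for Cldn7, both claudins of tight junctions. Dsg2 (0.21), a desmosomal cadherin, was among those under 2-fold. Against Nons, 0 of the 24 differed by 2-fold with either hairpin, where 1.19% (Smarca4.4) and 1.82% (Smarca4.6) of all genes did. The medians were -0.0049 with Smarca4.4 and -0.13 with Smarca4.6.

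Other keratins were mostly low. Of 17 further keratin genes, 3 had 0 reads with Nons and 2 passed the filter, Krt17 (a rise of 3.62) and Krt10 (1.10), and the 17 together gave 13.3 CPM on day 0 and 23.1 with Nons, beside 27.6 and 1865 CPM for the 4 simple keratins. Krt42, a type I keratin that did not pass the filter, gave 9.73 CPM of the day 0 sum (181 reads) and dropped to 14 reads with Nons, a change of -4.99 (-5.89 to -4.21). Krt5, Krt15 and Krt20, also short of the filter, differed from Nons by over 2-fold in the same direction with both hairpins on few reads. Krt5 had 3, 5, 2 and 0 reads on day 0 and with Nons, Smarca4.4 and Smarca4.6, Krt15 had 1, 4, 1 and 0, and Krt20 had 1, 7, 22 and 13. Among 11 other intermediate filament genes, 10 passed and 6 rose by 2-fold, against 19.6% of all genes. They were led by Prph (5.73), Des (3.79) and Lmna (3.44), which encode peripherin, desmin and lamin A/C.

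**Figure D4:**
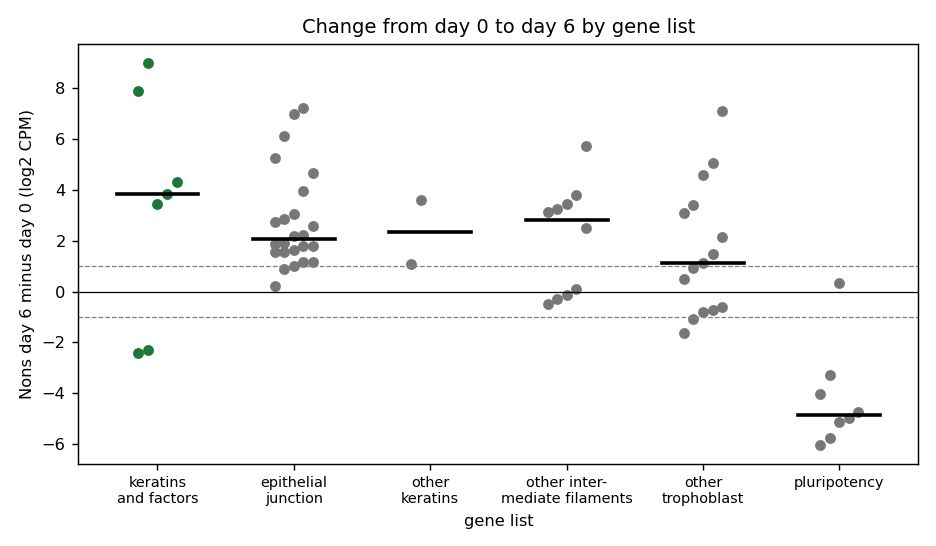
Change from day 0 to Nons day 6 (log2 CPM, vertical axis) for each gene that passed the filter, by gene list, with the median of each list as a bar and dashed lines at 2-fold. The junction genes all lie above 0 (median 2.06), the keratins and factors split into 5 higher and 2 lower, and the top point of the other trophoblast genes, Plac1, had 0 reads on day 0, so that its height is not a measured fold.

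Other trophoblast genes were mixed. Of 20 on the list, 18 were found and 15 passed the filter. Of these 8 rose by 2-fold and 2 fell, against 19.6% and 12.3% of all genes, and the median was 1.11. Among the risers, Hand1, Plac1, Gcm1 and Dlx3 were below the filter value on day 0 and passed through their day 6 levels. With the filter at 3, 4 rose and 1 fell, and the share of all genes at that filter is not given here. Plac1, a placental gene with 0 reads on day 0 and 306 with Nons, was 5.37 higher on the log2 scale when 3 reads were taken for day 0. The lower limit of its counting interval was 5.07. Id2, an inhibitor of basic helix-loop-helix factors, rose by 5.05, and Hand1, a factor of trophoblast giant cells and of mesoderm, rose by 4.58. With Smarca4.4, Hand1 (1.59) and Esx1 (1.95) were over 2-fold above Nons, and with Smarca4.6 0 genes were. Over all genes 1.19% and 1.82% differed by 2-fold in either direction. At 1.5-fold, 4 were higher with both hairpins (Gata2, Hand1, Plac1 and Esx1) and 2 were lower (Gcm1 and Tfap2a), against 3.54% of all genes.

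Relatives of the factors by family gave no common pattern. Of 15 paralogues, 7 passed the filter, with Cdx4 (3.51) and Gata4 (1.29) higher and Elf4 (-2.18) lower by 2-fold at Nons. Over all genes 19.6% rose and 12.3% fell. Cdx4 (-2.63 log2 CPM on day 0) and Gata4 (-0.13) were below the filter value on day 0 and passed through their day 6 levels. Among those short of the filter, Tfap2e (2.61) was higher at Nons, while Gata6 (-2.54), Ehf (-3.88) and Cdx1 (-10.4) were lower, with intervals that leave out 0. Cdx1, a caudal-type factor related to Cdx2, had 546 reads on day 0, 1 with Nons, 11 with Smarca4.4 and 12 with Smarca4.6. Its differences from Nons, 3.42 (0.63 to 8.84) and 3.91 (1.15 to 9.33), rest on that 1 read.

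Markers of the cell types in which the 9 genes are made were read as lists, with sums over all members and single values for some. Of 10 markers of placental trophoblast, 7 had 0 reads on day 0, 3 with Nons, 5 with Smarca4.4 and 4 with Smarca4.6. Prl3d1 and Prl2c2, hormones of trophoblast giant cells, and Synb, a syncytin, were at 0 in all 4 libraries, and Tpbpa, of the spongiotrophoblast, had 3 reads with Nons and 0 elsewhere. The summed level of the 10 was 34.8 CPM on day 0, 60.7 with Nons, 123 with Smarca4.4 and 100.5 with Smarca4.6, most of it from Rhox6. Of the 4 markers that passed the filter, Esx1 (1.95) and Rhox6 (1.04) were over 2-fold above Nons with Smarca4.4. With Smarca4.6 they differed by 0.96 and 0.75, and 0 of the 4 were over 2-fold different with both hairpins. At 1.5-fold with both hairpins, 3 were higher and Gcm1 was lower, against 3.54% of all genes. Syna, the other syncytin, did not pass the filter, with 0, 45, 102 and 90 reads, and differed from Nons by 1.14 (0.62 to 1.68) and 1.33 (0.80 to 1.88). Plac1, Esx1 and Rhox6 lie on the X chromosome, whose genes had a median difference from Nons of 0.19 with Smarca4.4 and 0.14 with Smarca4.6 beside 0.032 and 0.061 for autosomal genes, and the part of this in their values was not tested.

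Summed levels of other marker lists were read beside the keratin rise. On day 0 and with Nons, Smarca4.4 and Smarca4.6 they were 86.3, 36.5, 61.3 and 49.4 CPM for 10 primitive and visceral endoderm markers. Lama1 alone gave 77.9, 8.15, 24.7 and 14.1 CPM of these sums. Of the 5 that passed the filter, 3 rose by 2-fold to Nons, led by Dab2 (3.59) and Cubn (2.33), and Lama1 (-3.26) fell. Over all genes 19.6% rose and 12.3% fell. Cubn (6 reads on day 0) and Gata4 (17 reads), also among the risers, were below the filter value on day 0 and passed through their day 6 levels. Gata6, which did not pass, had 66 reads on day 0 and 28 with Nons, a change of -2.54 (-3.23 to -1.88). Ttr was at 0 throughout, and Afp had 3, 1, 3 and 2 reads (1.54 and 1.33 against Nons, with intervals that include 0). The 8 markers of surface ectoderm summed to 79.2, 87.8, 83.1 and 70.0 CPM in the same order. Grhl3 gave 66.6 CPM of the day 0 sum and Perp 81.6 CPM of the Nons sum. Perp (2.85) rose, Grhl3 (-4.45) fell and Tfap2a differed by 0.95, while Trp63 had at most 5 reads in any library. The 6 mesothelium markers summed to 31.6, 34.5, 39.5 and 41.6 CPM, within which Wt1, a factor of mesothelium and kidney, went from 1 read on day 0 to 815 with Nons (8.37, 5.89 to 13.7), Msln (-2.69) fell and Lrrn4 differed by 0.28. The 6 markers of germ cell precursors, a lineage that also uses Tfap2c, summed to 958.1, 53.5, 63.2 and 48.7 CPM, and Dazl alone gave 775 CPM of the day 0 sum. Of the 5 that passed the filter, 3 fell by 2-fold to Nons, Prdm14 (-7.71), Dazl (-6.62) and Dppa3 (-2.66), while Prdm1 (-0.91) and Ddx4 (0.13) did not. Over all genes 12.3% fell by this measure. The 8 pluripotency markers summed to 4480, 1085, 850.1 and 1120 CPM, of which Pou5f1 gave 724, 915, 701 and 982 CPM. At Nons 7 of the 8 were lower by 2-fold, against 12.3% of all genes, led by Klf2 (-6.02), Esrrb (-5.75) and Tfcp2l1 (-5.13). Pou5f1 differed by 0.34. The part of any of these cell types in the levels of the 9 genes was not tested.

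Genes with the most similar pattern over the 4 libraries were found by the Euclidean distance between log2 profiles after removing each gene's mean, among 13263 others. Nearest to Krt8 were Bcl2 (0.193), Fndc3c1 (0.227) and Hpn (0.271), with Krt18 at rank 43. Nearest to Krt18 were Ikzf4 (0.228), Gm20496 (0.291) and 1700019G06Rik (0.335), with Krt8 at rank 82. Nearest to Elf3 were E130012A19Rik (0.0337), Agk (0.0854) and Gm20531 (0.0888), and Tfap2c stood at rank 130 (0.367). With 4 libraries these distances reflect mainly the step from day 0 to day 6. Bcl2, Hpn, Gm20496 and 1700019G06Rik had the day 0 value written for 0 reads (-4.37 log2 CPM), and Ikzf4 (-4.22) was close to it. For these genes the step, and so the distance, depends on that written value.

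Some reads of Krt8 and Krt18 could have been shared with copies elsewhere in the genome. The annotation holds a pseudogene of Krt8, Krt8-ps, 98.6% identical over 941 bases, and a processed pseudogene of Krt18, Gm5200, 90.5% identical over 1267 bases. Neither is listed in the table, and no such transcript was found for the other 7 genes.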

How the data were processed

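RNA-seq libraries were TruSeq, paired-end, sequenced on a NextSeq500. Per the study's methods, reads were trimmed with trim_galore, mapped with HISAT2 or TopHat to mm10 with FVB/CAST SNPs masked, and quantified per gene in SeqMonk. The values deposited by the authors are log2 CPM (reads scaled by the total of each library). The strand setting is not given in the sources used here. Since values step by whole reads, read numbers and depth were recovered (tolerance 0.02 reads), and each difference carries an exact Clopper-Pearson 95% interval for counting error. With 1 library per group there was no test. Genes with a mean log2 CPM of at least 0 passed the filter, and 2-fold was the size named (1.5-fold as an alternative). That mean spans day 0 and day 6, so genes low on day 0 could pass through their day 6 values, and the reverse. The 9 genes and all lists were chosen with earlier results of these data known. All 9 are named. From other lists, the 3 largest day 0 to Nons changes among genes passing the filter are named. Any gene, also below the filter, 2-fold different in the same direction with both hairpins is named too. Others named (Dsg2, Gata2, Gata6, Dlx3, Ehf, Tfap2e, Rhox6, Krt42, Prdm1, Ddx4, the markers listed at 0, Trp63 and Pou5f1) were chosen after their values were seen. Scripts used Python 3.11.15, pandas 2.3.3 and scipy 1.17.1, and were tested on simulated data. Alternatives were a pseudocount of 1 CPM, no filter, a filter at 3, centring on the autosomal median, upper quartile scaling and 1.5-fold.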

Additional observations from a re-analysis of the deposited data

Results flagged for a closer look

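Krt8 lay on opposite sides of Nons at day 6 in the hairpin libraries. Its difference from Nons was 0.192 on the log2 scale with Smarca4.4 and -0.124 with Smarca4.6, and both counting intervals leave out 0. With 1 library per hairpin the difference between the hairpins was not tested, and both values use the same Nons library.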

How the results depend on the processing

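No paired analysis was possible because there was a lone library in each group, and no replicate could be left out. Of 86 recomputed counts and medians, 63 stayed within their limits, 22 moved and 1 changed sign, and of 108 values for single genes 87 stayed, 18 moved and 3 changed sign. The median change of the keratins and factors from day 0 to Nons was 3.45 without a filter and 4.08 with the filter at 3. Against Nons with Smarca4.4 it was 0.159 after centring, 0.153 with upper quartile scaling and 0.244 with the filter at 3. With Smarca4.6 it was -0.185, -0.174 and, with the sign changed, 0.0337 under the same settings, and -0.0887 without a filter. Between the hairpins it was 0.349 after centring. The number past the fold was 1 with Smarca4.4, 2 with Smarca4.6 and 1 between the hairpins at 1.5-fold, and 1 with Smarca4.6 (Cdx2) and 1 between the hairpins without a filter. Between the hairpins, Elf3 turned from -0.0044 to 0.029 after centring and 0.0069 with upper quartile scaling, and Elf5 to 0.00508 after centring. With a pseudocount of 1 CPM the change from day 0 to Nons was -0.977 for Cdx2, under 2-fold, and 2.08 for Gata3. Of the other trophoblast genes 4 rose with the filter at 3, and 4 fell without a filter, 1 with the filter at 3 and 5 at 1.5-fold. Of the other keratins 1 rose with a pseudocount, 10 without a filter and 0 with the filter at 3, and 5 fell without a filter, some of them from values written for 0 reads. Shares of all genes under these filter and pseudocount settings are not given here, so the list counts at them have no comparison. No scaling moved the median of all genes by over 0.1. Counts of 3 reads set a floor of 0.161 CPM on day 0 and between 0.0636 and 0.0822 CPM at day 6, which limits Cdx2, Elf5 and the placental markers.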

Other observations

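Filaments of other cell types also changed. Nes, the nestin of neural progenitors, rose by 3.12 from day 0 to Nons, and the neurofilament genes Nefl and Nefm rose by 2.51 and 3.25. Vim, the vimentin of mesenchymal cells, differed by -0.28 between day 0 and Nons, and was higher than Nons by 0.49 (0.43 to 0.55) with Smarca4.4 and by 0.73 (0.68 to 0.79) with Smarca4.6, while Des, the desmin of muscle, was lower by -0.62 and -0.73. Lama1, a laminin chain of the embryonic basement membrane and Reichert's membrane, fell by 3.26 from day 0 to Nons and was higher than Nons by 1.60 with Smarca4.4 and 0.79 with Smarca4.6. Apart from Lama1 and Des, these genes were chosen after their values were seen, and each value rests on 1 library per group.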
